A study of Mus musculus with 2 samples.

Results

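The collapsin response mediator proteins (CRMPs) and the growth cone proteins GAP43, BASP1, MARCKS, MARCKSL1 and NREP were followed at the RNA level in the subventricular zone (SVZ) and the cortex of the mouse embryonic brain. The 10 genes were chosen by name, with no threshold on their values, as the rows of the deposited count tables with the symbols Crmp1, Dpysl2, Dpysl3, Dpysl4, Dpysl5, Gap43, Basp1, Marcks, Marcksl1 and Nrep, out of 24411 genes listed. All 10 were found. These genes and the gene lists used below were chosen with earlier results of these data known, so their counts beside all genes are descriptive. The RNA came from fresh-frozen brain at embryonic day 16.5, cut by laser capture microdissection (LCM), in which areas of a stained section are excised under the microscope, and measured by bulk RNA-seq with 1 library for each area. No strain, genotype or treatment is named in the labels, and how many embryos or sections entered a library is not given in the sources used here. In the study these libraries served as a reference for a light-directed barcoding method, which was not analysed here.

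CRMPs are cytosolic proteins that bind tubulin and other cytoskeletal partners in growing axons, and they carry signals from semaphorin receptors to the microtubules of the growth cone, the motile tip of the axon. GAP43, BASP1 and the MARCKS proteins attach to the inner face of the plasma membrane, bind phosphoinositides and calmodulin, and are substrates of protein kinase C, through which they shape the actin network beneath the membrane. In the developing cortex the progenitors divide in the germinal layers beside the ventricle, and the neurons they produce settle in the cortical plate and extend axons.

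The library of each area is called its sample. Gene-assigned reads numbered 51435667 for the SVZ and 22050693 for the cortex. Levels are given as CPM, the reads of a gene per 1000000 gene-assigned reads, and differences as a log2 ratio, the CPM of the SVZ over that of the cortex. With 1 library per area no test was possible and no difference has a replicate check. The 95% intervals are exact (Clopper-Pearson) and cover the counting error of reads only. PCR copies of reads were not told apart, so the error in counting molecules may be larger. No p-values were computed. Markers were checked against the area names. All 9 apical progenitor markers, 5 intermediate progenitor markers and 7 proliferation markers were higher in the SVZ sample, with summed levels of 6622, 986 and 1671 CPM against 143, 51.2 and 31.3 CPM in the cortex sample. All 9 neuron markers tested were higher in the cortex sample, and the 10 listed summed to 6863 CPM there and to 2787 CPM in the SVZ sample, where Nefl was at 0. Neuron markers were thus present in both, and Neurod6 had 1592 CPM in the SVZ sample and 2797 CPM in the cortex sample. Among other cell types, microglia markers summed to 54.7 CPM in the SVZ sample and 5.99 CPM in the cortex sample, blood vessel markers to 143 and 109 CPM, interneuron markers to 140 and 476 CPM, choroid plexus markers to 247 and 2.09 CPM, oligodendrocyte precursor markers to 12.1 and 12.0 CPM, meningeal markers to 4.26 and 6.30 CPM and erythroid markers to 20.4 and 10.9 CPM. Npy alone gave 379 of the 476 CPM of the interneuron markers in the cortex sample (14.3 CPM in the SVZ sample), and 4 of the 6 interneuron markers tested were higher in the SVZ sample, with a median log2 ratio of 0.43. Likewise, Ttr alone gave 240 of the 247 CPM of the choroid plexus markers in the SVZ sample (0.726 CPM in the cortex sample). Of the markers of these other types, 4 haemoglobin genes and Kl were at 0 reads in both samples, Col1a1 in the SVZ sample and Folr1 in the cortex sample. Their part in the results was not tested. In bulk pieces, fewer cells of a type and less RNA per cell cannot be told apart.

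Each of the 10 genes had the higher CPM in the cortex sample, from 1.02-fold for Marcks to 7.87-fold for Gap43. Together they took 1.13% of gene-assigned reads in the SVZ sample and 3.04% in the cortex sample. The CRMP family formed a compact group between 2.57-fold and 4.17-fold higher in the cortex sample, whereas the membrane-attached proteins spread over the whole range. All 10 genes averaged 10 CPM or more over the libraries, the minimum for a gene to be counted. Of these, 7 were at least 2-fold higher in the cortex sample, where 12.3% of all 9027 genes above that minimum were, and 2 were at least 4-fold higher, against 4.70% of all genes. TMM, upper-quartile and DESeq2 scaling each put 3 genes past 4-fold, Dpysl3 being the added one. None of the 10 reached 2-fold higher levels in the SVZ sample, against 14.9% of all genes. The median log2 ratio was -1.48 over the 10 genes and 0.10 over all 9027 genes. No count interval of a gene overlapped that of its neighbour in the order of the ratios. This order describes these 2 libraries, not the areas in general.

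**Figure D1:**
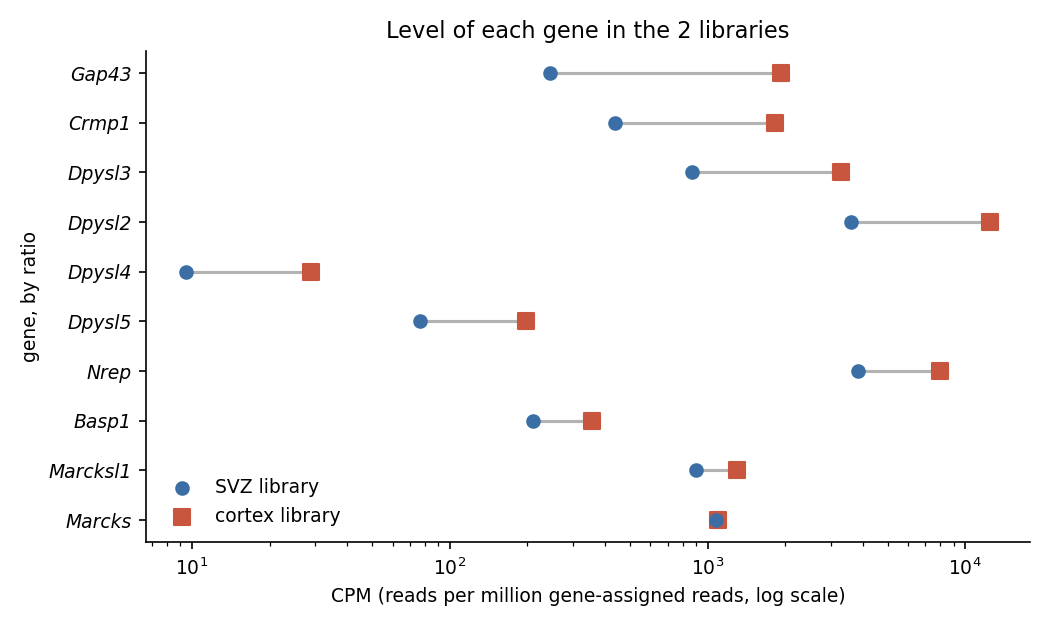
Level of each gene in CPM (log axis) in the SVZ sample (circles) and the cortex sample (squares), with genes ordered by their ratio and a line joining the libraries. Gap43 has the longest line (244 and 1923 CPM), and the Marcks symbols lie on each other (1075 and 1099 CPM).

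The CRMP sequences are shown first, because reads that match more than 1 of these related genes would be left out of the counts of each. Dpysl3 is not printed, but it was included in the comparisons of shared runs and windows given below. The stretch shown surrounds the longest run that Crmp1 and Dpysl2 transcripts share, 26 bases that Dpysl4 also holds. All 60 bases shown are coding, and they lie in exon 9 of Dpysl2 (GRCm38 chr14:66815489-66815548, minus strand), exon 9 of Crmp1 (chr5:37280506-37280565, plus strand), exon 8 of Dpysl4 (chr7:139096207-139096266, plus strand) and exon 8 of Dpysl5 (chr5:30784350-30784409, plus strand). Capitals mark the bases that differ from Dpysl2. Crmp1 differed from Dpysl2 at 10 of the 60 bases, Dpysl4 at 5 and Dpysl5, whose nearest stretch is shown, at 26.
Dpysl2: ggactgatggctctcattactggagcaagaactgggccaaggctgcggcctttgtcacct
Crmp1: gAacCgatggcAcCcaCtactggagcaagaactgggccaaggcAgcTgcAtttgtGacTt
Dpysl4: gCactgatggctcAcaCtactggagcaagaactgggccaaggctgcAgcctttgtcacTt
Dpysl5: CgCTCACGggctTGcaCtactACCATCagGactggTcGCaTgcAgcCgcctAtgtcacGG

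The longest run shared by any pair of the 5 CRMP genes was 29 bases, in Dpysl4 with Crmp1 and in Dpysl4 with Dpysl2. Reads were sequenced to 75 bases, and 0 of the 75-base windows in annotated transcripts of any of the 10 genes occurred in a transcript of another gene of the GENCODE M21 annotation. Reads left shorter by adapter removal were not tested. No exon of the 10 genes overlapped an exon of another gene in that annotation. Adding the strand-specific counts gave at most 6 more reads for a gene than the count that ignores strand. Between 45.2% and 50.6% of a gene's strand-assigned reads fell on the first strand, so the libraries kept no strand.

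Promoters of 4 of the 10 genes were taken from the RefSeq promoter table (GRCm38.p6). The 3 promoters shown set side by side genes whose RNA was higher in the cortex sample by 2.57-fold (Dpysl5), 1.69-fold (Basp1) and 1.45-fold (Marcksl1). That of Crmp1 is not printed, since GENCODE M21 places an earlier start inside it. Each line holds the 150 bases before the annotated start, at chr5:30711414-30711563 (plus strand) for Dpysl5, chr15:25413765-25413914 (minus) for Basp1 and chr4:129513431-129513580 (plus) for Marcksl1. Capitals mark GC boxes (GGGCGG, which may overlap each other), CCAAT boxes (CCAAT) and TATA boxes (TATAAA), each searched on both strands. E-boxes (CANNTG) were also searched and are not marked.
Dpysl5: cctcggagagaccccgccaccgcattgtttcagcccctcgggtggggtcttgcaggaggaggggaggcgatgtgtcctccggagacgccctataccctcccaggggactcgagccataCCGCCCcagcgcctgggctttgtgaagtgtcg
Basp1: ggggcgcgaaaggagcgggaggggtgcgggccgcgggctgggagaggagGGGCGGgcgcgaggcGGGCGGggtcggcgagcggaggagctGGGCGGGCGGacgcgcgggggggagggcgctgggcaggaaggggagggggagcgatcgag
Marcksl1: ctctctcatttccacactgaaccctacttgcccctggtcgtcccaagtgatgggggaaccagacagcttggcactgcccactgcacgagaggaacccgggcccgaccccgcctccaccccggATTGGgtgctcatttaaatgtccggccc

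The Crmp1 promoter held 3 GC boxes, that of Dpysl5 1 and that of Basp1 4, and that of Marcksl1 held no GC box and 1 CCAAT box. A second annotated start of Crmp1 had 2 GC boxes. Of the 32851 promoters in the table, 28.6% held a GC box, 24.5% a CCAAT box, 7.57% a TATA box and 47.7% an E-box in the same 150 bases. An E-box was found once, in the Marcksl1 promoter. No TATA box was found in the 5 promoters of these 4 genes. Their GC content was 75.3% and 61.3% for the Crmp1 starts, 66.7% for Dpysl5, 82.0% for Basp1 and 62.0% for Marcksl1, against a median of 54.0% over all promoters. These matches describe the sequence and no factor was measured. Promoters of Dpysl3 and Nrep were not examined, so the matches and GC content do not cover every gene of the set.

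Dpysl2 (GRCm38 chromosome 14, 66802864 to 66868688), which encodes CRMP2, the family member best known for carrying tubulin to the growing axon, was the most abundant CRMP RNA. It had 185412 reads in the SVZ sample (3605 CPM) and 273893 in the cortex sample (12421 CPM), 3.45-fold more by CPM (interval 3.43 to 3.47, log2 ratio -1.78). Divided by exon length, so that genes can be compared, its level was 798 reads per kilobase per 1000000 reads (RPKM) in the SVZ sample and 2748 RPKM in the cortex sample. It ranked number 20 and number 3 in these libraries among the 23376 genes with a length.

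Dpysl3 encodes CRMP4, which binds actin as well as microtubules. It followed Dpysl2 with 44721 reads in the SVZ sample (869 CPM) and 72945 in the cortex sample (3308 CPM), 3.80-fold more by CPM (3.76 to 3.85). Crmp1 (chromosome 5, 37241940 to 37292133), a CRMP that acts in semaphorin 3A signalling, had 22470 reads (437 CPM) and 40171 reads (1822 CPM). Its 4.17-fold higher level in the cortex sample (log2 ratio -2.06, interval -2.08 to -2.04) was the largest difference of the family. Of the 9027 genes tested 4.49% had a lower ratio than Crmp1, 5.02% a lower ratio than Dpysl3 and 5.72% a lower ratio than Dpysl2.

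The remaining CRMP genes were less abundant. Dpysl5 (chromosome 5, 30711564 to 30799375), which encodes the most divergent CRMP, had 3952 reads in the SVZ sample (76.8 CPM) and 4362 in the cortex sample (198 CPM), and at 2.57-fold (2.47 to 2.69) it had the smallest difference of the family. Dpysl4 (chromosome 7, 139086001 to 139102704), which encodes CRMP3, was read 489 times (9.51 CPM) and 636 times (28.8 CPM). Its 3.03-fold difference had the widest interval of the 10 genes, 2.69 to 3.42, and it was the only one of them with a mean under 100 CPM.

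The make-up of the family within each library does not depend on how the libraries are scaled to each other. Dpysl2 gave 79.5% of the CRMP reads per kilobase in the SVZ sample and 77.7% in the cortex sample. Dpysl3 gave 13.1% and 14.1%, Crmp1 6.18% and 7.31%, Dpysl5 1.04% and 0.758%, and Dpysl4 0.158% and 0.136%. The family thus had nearly the same make-up in both pieces while its summed level was 4997 CPM in the SVZ sample and 17777 CPM in the cortex sample. The intervals of the shares, which take each read as independent and ignore PCR copies, did not overlap for 4 of the genes. The share of CRMP reads was 72.1% (72.0 to 72.3) and 69.9% (69.7 to 70.0) for Dpysl2, and 17.4% (17.3 to 17.5) and 18.6% (18.5 to 18.7) for Dpysl3. It was 8.74% (8.63 to 8.85) and 10.2% (10.2 to 10.3) for Crmp1, and 1.54% (1.49 to 1.59) and 1.11% (1.08 to 1.15) for Dpysl5. For Dpysl4 the intervals, 0.174% to 0.208% and 0.150% to 0.175%, overlapped. The shares per kilobase rest on the length chosen. With the longest annotated transcript in place of all exons, Dpysl2 gave 71.4% and 68.8%. Crmp1 then had 143 RPKM in the SVZ sample and 597 in the cortex sample, close to Dpysl3 at 159 and 604. All exons of Crmp1 span 7046 bases and its longest transcript 3051, so its share beside Dpysl3 is not settled.

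**Figure D2:**
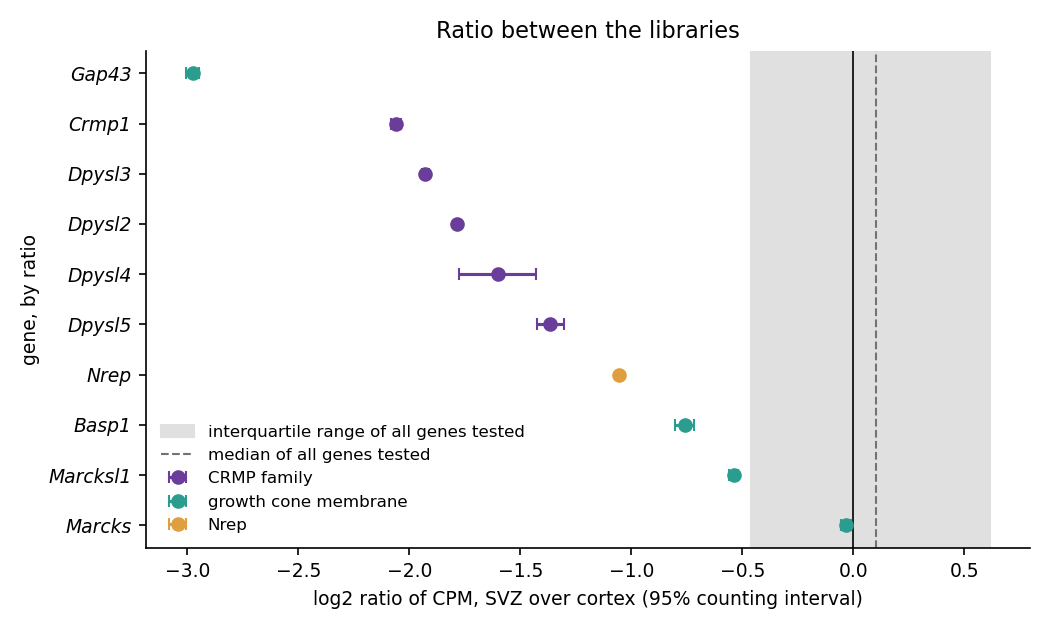
Log2 ratio of CPM, SVZ over cortex, for each gene with its 95% counting interval, coloured by group, beside the interquartile range of the 9027 genes tested (grey band, -0.46 to 0.61) and their median (dashed, 0.10). The CRMP genes lie between -2.06 and -1.36, Gap43 lies at -2.98, and Marcks alone lies inside the band.

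Gap43 and Basp1 encode membrane-attached proteins of growing axons, and they differed from each other. Gap43 (GRCm38 chromosome 16, 42248442 to 42340651) was covered by 12573 reads in the SVZ sample (244 CPM) and 42409 in the cortex sample (1923 CPM), 7.87-fold more by CPM (7.71 to 8.03, log2 ratio -2.98). This was the largest difference of the 10 genes, and 2.27% of all genes tested had a lower ratio. Basp1 (chromosome 15, 25363277 to 25413764) had 10828 reads (211 CPM) and 7861 reads (356 CPM), 1.69-fold more in the cortex sample (1.64 to 1.74). Within the SVZ sample there were 1.16 Gap43 reads for each Basp1 read (1.13 to 1.19) and within the cortex sample 5.39 (5.27 to 5.53). The difference of their log2 ratios was -2.22 (-2.29 to -2.15).

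Marcks and Marcksl1 encode the related protein kinase C substrates MARCKS and MARCKS-like 1, which release the membrane when phosphorylated. Marcks (chromosome 10, 37133375 to 37138920) had 55308 reads in the SVZ sample (1075 CPM) and 24238 in the cortex sample (1099 CPM), a 1.02-fold difference (1.01 to 1.04). Its interval did not reach equal CPM, but the log2 ratio of -0.03 lay within the interquartile range of all genes, -0.46 to 0.61, and 43.2% of genes had a lower ratio. Marcksl1 (chromosome 4, 129513581 to 129515985) had 46211 reads (898 CPM) and 28788 reads (1306 CPM), 1.45-fold more in the cortex sample (1.43 to 1.47). Per kilobase there were 0.475 Marcks reads for each Marcksl1 read in the SVZ sample and 0.334 in the cortex sample, so Marcksl1 was the more abundant RNA of the pair in both.

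The membrane-attached group changed its leading gene between the libraries. Per kilobase, Marcksl1 was first in the SVZ sample with 560 RPKM, ahead of Marcks (266), Gap43 (161) and Basp1 (105). In the cortex sample Gap43 was first with 1263 RPKM, ahead of Marcksl1 (813), Marcks (272) and Basp1 (177). Gap43 gave 14.7% of the reads per kilobase of these 4 genes in the SVZ sample and 50.0% in the cortex sample. Against Marcks, whose CPM was nearly equal, Gap43 had 0.227 reads for each Marcks read in the SVZ sample (0.223 to 0.232) and 1.75 in the cortex sample (1.72 to 1.78).

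**Figure D3:**
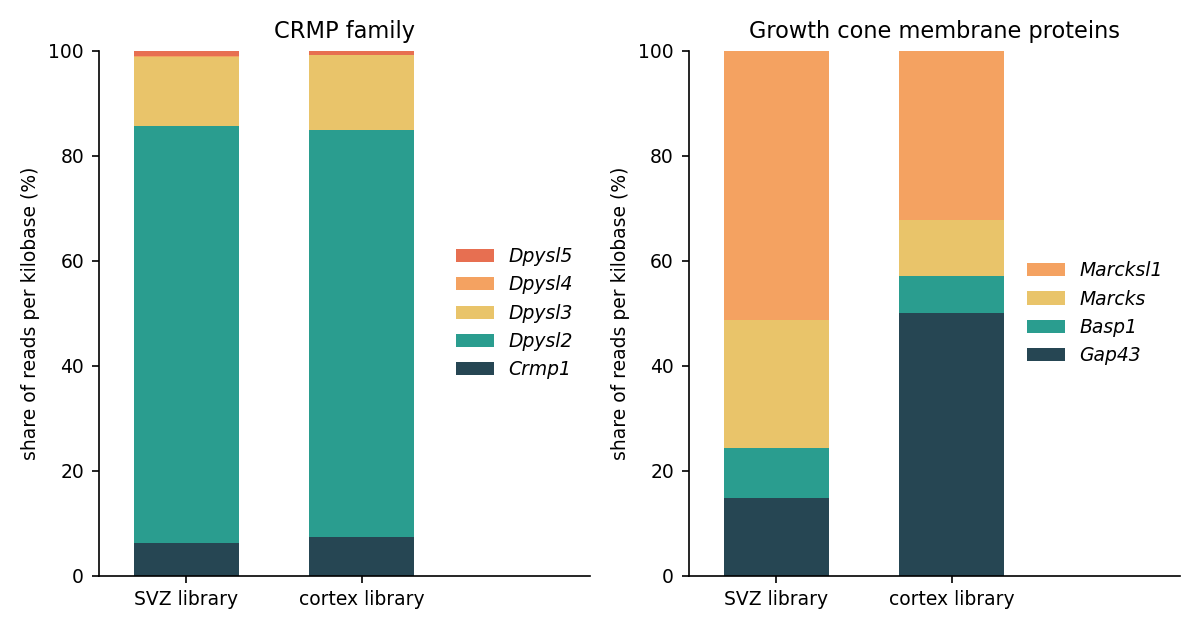
Share of reads per kilobase of exon (%) that each gene gave within its group, in the SVZ sample and in the cortex sample. The CRMP bars are alike, with Dpysl2 at 79.5% and 77.7%, whereas the share of Gap43 among the membrane-attached proteins is 14.7% in the SVZ sample and 50.0% in the cortex sample. The Dpysl4 share is too thin to be seen.

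Nrep encodes P311, a small protein linked to axon regeneration and to the translation of TGF-beta ligands. It was the most abundant of the 10 RNAs per kilobase in the SVZ sample, with 197410 reads there (3838 CPM, 982 RPKM) and 175669 reads in the cortex sample (7967 CPM, 2039 RPKM). Its level was 2.08-fold higher in the cortex sample (2.06 to 2.09), just past the 2-fold limit, while Basp1 at 1.69-fold was the nearest gene short of it. Per kilobase there were 1.23 Nrep reads for each Dpysl2 read in the SVZ sample and 0.742 in the cortex sample, so the order of these most abundant members was exchanged. The TGF-beta list held 8 genes, of which 5 averaged 10 CPM or more, with a median log2 ratio of 0.25. Among these 5 genes 1 was at least 2-fold higher in each direction. The ligand gene Tgfb2 had 2994 reads in the SVZ sample and 34 in the cortex sample (58.2 and 1.54 CPM, log2 ratio 5.24), and the receptor gene Tgfbr1 had a log2 ratio of -1.70. Smad2 (0.40) and Smad4 (-0.07) lay within 2-fold. Of the 3 genes under 10 CPM, Tgfbr2 (4.69 and 1.45 CPM, log2 ratio 1.69, interval 1.16 to 2.27) and Tgfb3 (7.00 and 3.45 CPM, 1.02, interval 0.66 to 1.40) were also higher in the SVZ sample. Tgfb1 had 1 read in the SVZ sample and 0 in the cortex sample, where the floor of 3 reads set for a count of 0 equals 0.136 CPM.

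The genes around the CRMPs and the membrane-attached proteins were then counted by list, with all genes averaging 10 CPM or more as the background (12.3% at least 2-fold higher in the cortex sample and 14.9% in the SVZ sample). Of the semaphorin-CRMP list, 21 of 23 genes reached that level, of which 7 were at least 2-fold higher in the cortex sample, 1 was higher by at least 2-fold in the SVZ sample and 13 lay within 2-fold, with a median log2 ratio of -0.39. Nrp1, the semaphorin 3A receptor subunit that binds the ligand, was the gene at least 2-fold higher in the SVZ sample, with 25874 reads there and 3490 in the cortex sample (503 and 158 CPM, log2 ratio 1.67). Its ligand gene Sema3a had a log2 ratio of 0.61 and the co-receptor gene Plxna4 one of -0.39. The other plexin-A genes of the list lay at -1.33 (Plxna1), -0.91 (Plxna3) and 0.18 (Plxna2). The adhesion molecule L1cam (-2.39) and the calcium channel gene Cacna1b (-2.24), whose products bind semaphorin receptors and CRMP2 respectively, had the lowest ratios. Of the kinases that phosphorylate CRMPs, Cdk5 had a log2 ratio of -0.41 and its activator Cdk5r1 one of -1.35, Gsk3b one of -0.47, and Fyn one of -0.05 with an interval of -0.12 to 0.02, and no difference in Fyn was detectable at this depth. Of the other kinases of the list that averaged 10 CPM or more, Dyrk2 (-1.69) and Rock2 (-0.16) were lower in the SVZ sample. Rock1 was higher there, at 0.48 (interval 0.42 to 0.54). Gsk3a lay at -0.18 with an interval of -0.40 to 0.04, so no difference in Gsk3a was detectable either.

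Of the protein kinase C and calmodulin list, 15 of 17 genes reached 10 CPM, with 5 at least 2-fold higher in the cortex sample, 1 at least 2-fold higher in the SVZ sample and a median log2 ratio of -0.73. The protein kinase C genes differed among themselves. Prkce had 3329 reads in the SVZ sample and 11199 in the cortex sample (64.7 and 508 CPM, log2 ratio -2.97), Prkca had a log2 ratio of -0.73, and Prkcb one of 0.98. Ncam1, a neural adhesion molecule that signals to GAP43, had a log2 ratio of -2.26. Elavl4 encodes HuD, an RNA-binding protein known to stabilise the Gap43 mRNA, and it was higher in the SVZ sample, with 25660 reads there and 3670 in the cortex sample (499 and 166 CPM, log2 ratio 1.58).

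The growth cone cytoskeleton list had the lowest median of the 4 lists, with 10 of its 20 genes at least 2-fold higher in the cortex sample, none at least 2-fold higher in the SVZ sample and a median log2 ratio of -0.99. Mapt, which encodes the axonal microtubule protein tau, had 9739 reads in the SVZ sample and 42316 in the cortex sample (189 and 1919 CPM, log2 ratio -3.34). Stmn2, a tubulin-binding protein of growth cones, had a log2 ratio of -3.11. Pfn1, an actin monomer-binding protein, lay at 0.76 and Ckap5, a microtubule polymerase, at 0.53. The neuron markers tested had a median log2 ratio of -2.06, lower than that of the 10 genes. Among all other genes averaging 100 CPM or more, Ppp3ca (-1.49, also in the calmodulin list) and Gdap1 (-1.47) were among the 3 with log2 ratios nearest to the median of the 10 genes, a likeness that rests on 2 libraries.

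**Figure D4:**
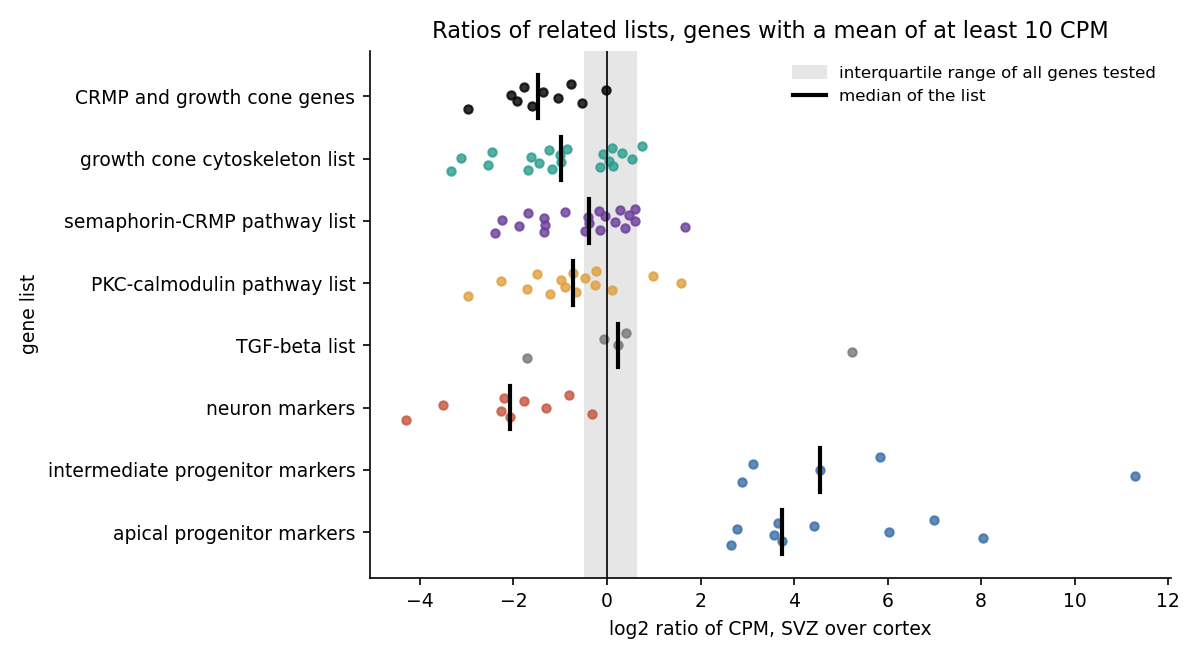
Log2 ratio of CPM, SVZ over cortex, for genes averaging 10 CPM or more (points) in each list, with the list median (bar) and the interquartile range of all genes tested (grey band). The 10 CRMP and growth cone genes have a median of -1.48, between the neuron markers (-2.06) and the growth cone cytoskeleton list (-0.99), while the apical progenitor markers have a median of 3.74.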

How the data were processed

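LCM RNA-seq of the SVZ and the cortex at embryonic day 16.5 was analysed, with 1 library per area. Per the study's methods, libraries were made from laser-cut, stained cryosections with a low-input kit. The authors removed adapters with cutadapt and aligned the first read of each pair to mm10 with STAR (versions 4.1 and 2.7.9a in the submitters' processing notes), and the deposited values are whole-read counts per gene, not normalized, in 3 columns (strand ignored, and each strand apart). Reads matching several places or genes were left out by the counter. A merged table with the authors' fold changes was not used.

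CPM was computed here from the counts that ignore strand, on the total of gene lines, without the 4 summary lines. A count of 0 was set to a floor of 3 reads. Intervals are exact 95% Clopper-Pearson intervals of the share of a gene's reads from the SVZ library, and those of a difference join the ends of both intervals. Genes averaging 10 CPM or more were counted at 2-fold and 4-fold. RPKM used the union of exons in GENCODE M21 (GRCm38), matched by symbol for 96.5% of the genes tested. The genes named are the 10 members, the 2 highest and lowest ratios of each pathway list among genes at that level, partners fixed by role, and 3 genes by likeness, of which some are not reported here. Marker genes, Tgfb1, Tgfb3, Tgfbr2, Plxna1, Plxna2, Plxna3, Dyrk2, Gsk3a, Rock1 and Rock2 stand outside that rule and were named after their values were seen. The members and lists were chosen with earlier results of these data known. Other scalings came from edgeR 4.0.16 and DESeq2 1.42.0 in R 4.3.3. Ratios and intervals were computed with pandas 2.3.3, scipy 1.17.1 and numpy 2.4.6 under Python 3.11.15. The procedure was tested on simulated counts that varied by counting error alone. That test cannot show how the intervals fare with PCR copies or with variation between libraries.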

Additional observations from a re-analysis of the deposited data

How the results depend on the processing

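No paired analysis was possible because only 1 sample was made of either area, so no replicate could be left out. The alternatives were TMM, upper-quartile and DESeq2 scaling, totals leaving out the 10 genes with most reads in either sample or the 10 members, the summed and each strand-specific count, a pseudocount of 1 CPM, and other minimums. Under the 9 of these that recompute ratios, none of the 10 genes changed direction, and 7 were at least 2-fold higher in the cortex sample each time. The count at 4-fold was 3 under TMM, upper-quartile and DESeq2 scaling and 2 under the other 6. The median of the 10 genes ranged from -1.58 to -1.43. Marcks, the gene nearest to 0, ranged from -0.13 to -0.03 and Gap43 from -3.07 to -2.95. Upper-quartile scaling moved the median of all genes from 0.10 to -0.0010. At a mean of at least 100 CPM, 6 genes were at least 2-fold higher in the cortex sample, since Dpysl4 was then not counted.

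The shares moved with the length used. Without division by length Dpysl2 gave 72.1% of CRMP reads in the SVZ sample and 69.9% in the cortex sample, and Marcks gave 54.5% and 45.7% of the reads of the Marcks pair. With the longest transcript Dpysl2 gave 71.4% and 68.8%.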
